A study of Mus musculus with 15 samples.

Results

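The mRNAs of 6 genes of the colony-stimulating factor axis were followed in mouse spleen after irradiation, alone or with a burn: the ligands *Csf1* and *Csf2*, the receptors *Csf1r*, *Csf2rb* and *Csf3r*, and the stem cell factor receptor *Kit*. They were chosen by name, and they are 6 of the 561 genes counted on an nCounter mouse immunology panel. In this assay, probe pairs capture each mRNA and their colour barcodes are counted without amplification. A gene was tested when its counts averaged 20 or more across the 15 samples. This held for 4 of the 6, while *Csf2* and *Kit* fell below it and are given by their values. All mice were female C57BL/6J of 6 to 8 weeks at the time of the experiment. Sham mice had the same handling with neither injury, WBIR mice were exposed over the whole body to 9 Gy of ionising radiation, and RCI (radiation combined injury) mice to 9 Gy within an hour of a contact burn over 20% of the total body surface area. WBIR+MSC-EVs and RCI+MSC-EVs mice were also given, intravenously and 72 hours after injury, extracellular vesicles shed by cultured C57BL/6J bone marrow mesenchymal stem cells. Spleens were collected 48 hours later. The sample labels name PBS as vehicle for RCI mice alone, and the study's text gives saline for untreated WBIR, RCI and Sham mice. Each of the 5 groups had 3 samples. Nothing says that these came from separate mice, so p-values measure only the spread between samples, which may be technical.

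Counts were divided by a factor per sample from the geometric mean of the panel's 14 reference genes, and the results are called scaled counts. Total counts ran from 90127 to 598872 per sample, lowest in WBIR+MSC-EVs replicate 1. A pair of libraries matter for what follows. Sham replicate 2 had a total of 179472 counts, the lowest of Sham, and held the highest scaled *Csf3r* and *Csf1* of that group. Its raw count was also the highest for *Csf3r* but not for *Csf1*. RCI replicate 3 held the lowest *Csf1r* and the highest *Csf1* and *Csf3r* of the RCI group. All 11 B cell and 14 T cell markers on the panel had enough counts to be tested. This does not check the labelled tissue, since other samples that hold lymphocytes would also pass. In bulk RNA, fewer cells of a type and less of an mRNA per cell cannot be told apart.

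Colony-stimulating factors are secreted proteins that set the survival, growth and maturation of myeloid cells. CSF-1 (M-CSF), made largely by stromal and endothelial cells, acts through the tyrosine kinase CSF1R on monocytes, macrophages and their precursors, and splenic red pulp macrophages need it. GM-CSF (*Csf2*) signals through a specific alpha chain and the beta chain encoded by *Csf2rb*, which the IL-3 and IL-5 receptors also use. G-CSF acts through CSF3R on neutrophils and their precursors. KIT binds stem cell factor on haematopoietic stem and progenitor cells and on mast cells. The mouse spleen also makes blood cells, and haematopoietic progenitors are among its radiosensitive cells.

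*Csf1r*, the CSF-1 receptor and a defining gene of the macrophage lineage, was higher in all 4 irradiated groups than in Sham. Scaled counts in Sham were 1597, 785.7 and 1226 in replicates 1, 2 and 3. WBIR samples had 2779, 4721 and 5072, and WBIR+MSC-EVs samples had 2951, 6885 and 5197. RCI samples had 5022, 4048 and 1763, and RCI+MSC-EVs samples had 4784, 5116 and 3386. Every irradiated sample lay above every Sham sample, and RCI replicate 3 lay closest to Sham. Mean levels were 1203 ± 406 in Sham (SD, n = 3), 3611 ± 1673 in RCI, 4190 ± 1235 in WBIR, 4429 ± 918 in RCI+MSC-EVs and 5011 ± 1973 in WBIR+MSC-EVs. The ranges of the 4 irradiated groups overlapped one another, so their order does not exceed their spread.

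In edgeR's quasi-likelihood test, adjusted by Benjamini-Hochberg, *Csf1r* rose by 1.80 ± 0.43 on the log2 scale (SE) in WBIR against Sham, with an adjusted p of 0.00201. The difference was 2.06 ± 0.44 in WBIR+MSC-EVs (adjusted p = 8.6e-04), 1.58 ± 0.43 in RCI (adjusted p = 0.00442) and 1.88 ± 0.43 in RCI+MSC-EVs (adjusted p = 0.00161), all against the same 3 Sham samples. These are folds of 3.48, 4.16, 3.00 and 3.68. *Csf1r* was called under every alternative tried in these comparisons, with log2 differences between 1.27 and 1.91 in RCI, the lowest of the 4. Under reference-gene scaling, the median tested gene differed from Sham on the log2 scale by -0.74 in WBIR and -0.61 in WBIR+MSC-EVs, and by -0.53 in RCI and -0.45 in RCI+MSC-EVs. TMM scaling over all tested genes raises these medians by 0.72, 0.56, 0.54 and 0.37 in the same order, so each rise given here is larger when read against the median gene.

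Of the 4 tested genes, *Csf1r* was the only one called higher in WBIR, where 21.6% of all tested genes were called higher and 46.9% lower. *Csf1r* and *Csf2rb* were called higher in WBIR+MSC-EVs, where 22.8% of tested genes were higher and 45.1% lower. *Csf1r*, *Csf2rb* and *Csf1* were called higher in RCI, beside 26.5% higher and 43% lower over all tested genes. In RCI+MSC-EVs, *Csf1r* and *Csf2rb* were called higher and *Csf3r* lower, beside 23.9% higher and 41.3% lower. With TMM scaling the shares over all tested genes were nearly even, at 31.7% higher and 35.2% lower in WBIR and 35.4% and 35% in RCI.

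**Figure D1:**
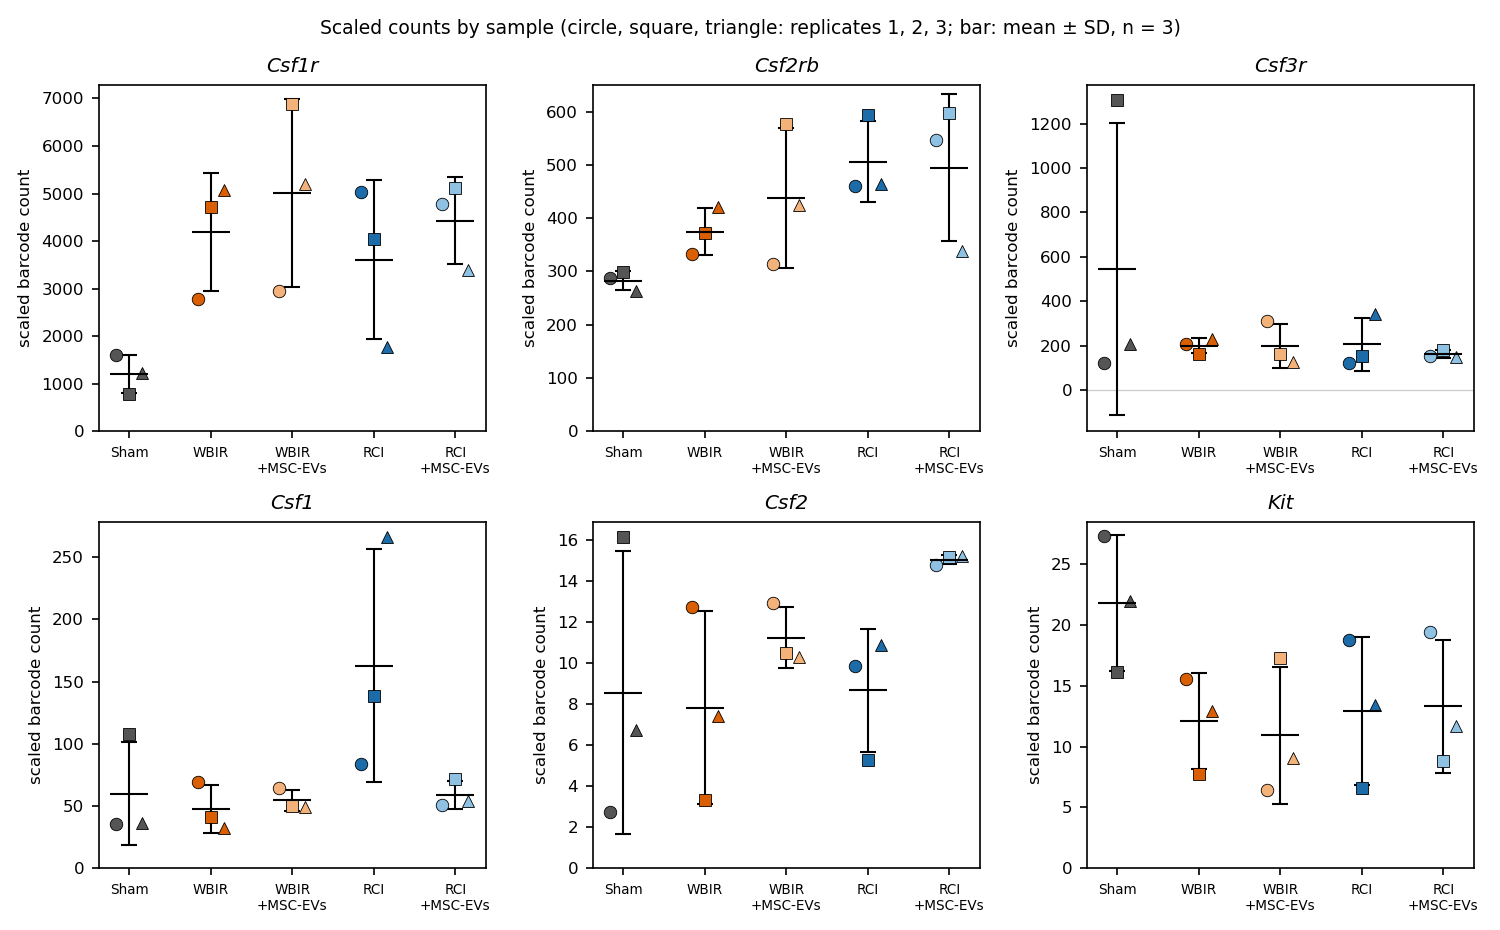
Scaled counts of the 6 genes in each sample on a linear axis, with a panel per gene, the replicates of each group as separate symbols, and bars for the mean ± SD (n = 3). *Csf1r* and *Csf2rb* lie above Sham in all 12 irradiated samples, and the Sham mean of *Csf3r* is carried by replicate 2, at 1305.

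Markers of macrophages and monocytes moved with *Csf1r*. Of 11 such genes tested, *Csf1r* not among them, 8 were called higher and none lower in WBIR, with a median log2 difference of 2.58 beside -0.74 over all tested genes. In WBIR+MSC-EVs 9 were higher and none lower. Both RCI groups had 8 higher and 1 lower. By edgeR, *Emr1* (now *Adgre1*, the F4/80 antigen) was higher by 3.67 ± 0.36 in WBIR (adjusted p = 1.2e-06), and *Fcgr1*, the high-affinity IgG receptor, by 3.90 ± 0.51 (adjusted p = 1.5e-05). The member that fell in RCI was *Ccr2*, the chemokine receptor of inflammatory monocytes, at -1.35 ± 0.46 (adjusted p = 0.0181), although it is not called under TMM scaling, nor without Sham replicate 2 (-0.55, adjusted p = 0.188) or RCI replicate 3 (-1.16, adjusted p = 0.0633). The summed scaled counts of the 11 genes ran from 3234 to 6152 in Sham and from 20920 to 46310 in irradiated samples, and none was at 0 in any sample. Their part in the *Csf1r* difference was not tested.

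Within samples, *Csf1r* did not gain on these markers. Its log2 ratio to the geometric mean of the 11 genes was 2.50 ± 0.53 in Sham (SD, n = 3), 2.14 ± 0.25 in WBIR, 1.66 ± 0.64 in RCI, 2.15 ± 0.26 in WBIR+MSC-EVs and 1.91 ± 0.21 in RCI+MSC-EVs. These ratios overlap between Sham and both WBIR groups, and between Sham and RCI. All 3 RCI+MSC-EVs samples, from 1.67 to 2.08, lay below the lowest Sham sample, at 2.13. The lowest ratio of all, 0.98, belonged to RCI replicate 3, which had the highest marker sum and the lowest irradiated *Csf1r*. That sum was carried by 1 marker, *Marco*, at 30250 scaled counts, where the median of the RCI group was 5125. *Marco*, *Cd14* and *Itgam* were the highest of the RCI group in this sample. *C1qa*, *C1qb*, *Fcgr1*, *Cd163*, *Ccr2* and *Cx3cr1* were the lowest, as *Csf1r* was, and *Emr1* and *Msr1* lay in between.

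*Csf2rb*, the signalling chain shared by the GM-CSF, IL-3 and IL-5 receptors, differed from Sham by less than *Csf1r* did. Scaled counts in Sham were 287.5, 298.7 and 262.3. They were 332.1, 371.4 and 421.0 in WBIR, and 313.5, 576.0 and 425.2 in WBIR+MSC-EVs. RCI samples had 461.0, 593.7 and 464.4, and RCI+MSC-EVs samples had 547.2, 598.4 and 337.8. No irradiated sample reached down to Sham, whose SD was 18.6 around a mean of 283.

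In WBIR the log2 difference of *Csf2rb* from Sham was 0.41 ± 0.26 and was not called by edgeR (adjusted p = 0.165), although the ranges did not overlap. It was 0.64 ± 0.26 in WBIR+MSC-EVs (adjusted p = 0.0384), 0.84 ± 0.26 in RCI (adjusted p = 0.00901) and 0.81 ± 0.26 in RCI+MSC-EVs (adjusted p = 0.0125). With TMM scaling the WBIR difference was 1.02 and was called (adjusted p = 0.00251). In RCI+MSC-EVs it was no longer called without replicate 2 (0.65, adjusted p = 0.0618), and in WBIR+MSC-EVs without any 1 of 4 samples, Sham replicates 1 and 3 and the group's own replicates 2 and 3, with adjusted p from 0.0662 to 0.214. *Csf2rb* lies beside a near-identical copy, *Csf2rb2*, the mouse IL-3-specific beta chain. Whether the probes tell both apart was not assessed, so these counts are uncertain as counts of *Csf2rb* alone.

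*Csf3r*, the G-CSF receptor of the neutrophil lineage, differed from Sham mainly through 1 Sham sample. Sham replicates had 122.8, 1305 and 207.5 scaled counts. WBIR samples had 204.9, 162.4 and 229.5, and WBIR+MSC-EVs samples had 310.3, 162.2 and 123.8. RCI samples had 122.1, 152.7 and 340.3, and RCI+MSC-EVs samples had 152.2, 181.8 and 148.4. Sham replicate 2 lay far above all 14 other samples, and the other Sham samples lay within the irradiated range.

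With all samples, *Csf3r* was lower than in Sham by 1.74 ± 0.70 on the log2 scale in RCI+MSC-EVs, and edgeR called it there (adjusted p = 0.0405). Its log2 differences in WBIR, WBIR+MSC-EVs and RCI were -1.43 ± 0.69, -1.47 ± 0.70 and -1.38 ± 0.69, and none was called (adjusted p = 0.0779, 0.0760 and 0.0877). Without Sham replicate 2 the differences became 0.27 in WBIR, 0.32 in RCI, 0.23 in WBIR+MSC-EVs and -0.04 in RCI+MSC-EVs, with adjusted p between 0.559 and 0.949. No direction can therefore be given for *Csf3r* against Sham.

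**Figure D2:**
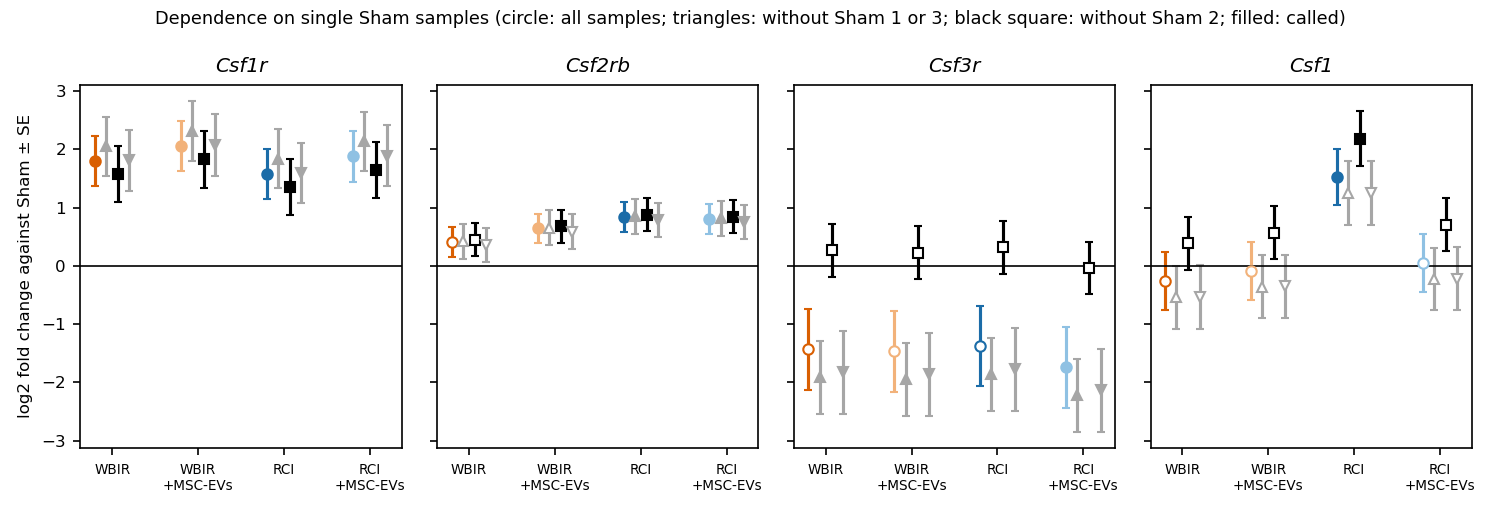
Log2 fold changes ± SE (edgeR) of the 4 tested genes against Sham with all samples and without Sham replicate 2, for each irradiated group. Without Sham replicate 2, the 4 differences of *Csf3r* move from between -1.74 and -1.38 to between -0.04 and 0.32, while those of *Csf1r* stay above 1.

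Neutrophil markers did fall. Of the 4 tested with *Csf3r* left out, all were called lower in WBIR, RCI and RCI+MSC-EVs and 3 in WBIR+MSC-EVs. Over all tested genes, 41.3% to 46.9% were called lower in these groups. With TMM scaling 3 of the 4 were lower in WBIR. *Cxcr2* in WBIR (-1.95) was not called by edgeR without Sham replicate 2 (-0.73, adjusted p = 0.410), nor without WBIR replicate 2 or 3. *Camp*, a granule peptide made by maturing neutrophils, had 239 to 1648 raw counts in Sham and 2 to 4 in WBIR, too few to give the size of its fall. By edgeR, *S100a8*, a calcium-binding protein abundant in neutrophils, was at -2.72 ± 0.70 in WBIR (adjusted p = 0.00305). The summed scaled counts of the 6 neutrophil genes on the panel were 7732, 43100 and 26560 in Sham, and 1116 to 9794 in irradiated samples. Sham replicate 2 thus had both the highest neutrophil sum and the highest *Csf3r*. Sham replicate 3 had the next highest sum with only 207.5 scaled counts of *Csf3r*, and RCI replicate 3 had the lowest sum of all with the highest irradiated *Csf3r*.

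The log2 ratio of *Csf3r* to the geometric mean of the 3 other tested neutrophil markers, with *Camp* left out for its few counts, was on average higher in irradiated groups. It was -3.08 ± 0.76 in Sham (SD, n = 3), -1.48 ± 0.76 in WBIR, -0.30 ± 1.38 in RCI, -1.62 ± 0.68 in WBIR+MSC-EVs and -1.39 ± 0.37 in RCI+MSC-EVs. The highest Sham sample, replicate 2 at -2.34, overlapped WBIR+MSC-EVs replicate 1 at -2.40, and the other irradiated samples lay above Sham.

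The *Csf3r* promoter is shown because PU.1, a myeloid transcription factor, acts on many genes of this lineage. Its core motif was searched in promoters of 4 of the 6 genes: *Csf1*, *Csf2*, *Csf3r* and *Kit*. These were RefSeq promoters of assembly GRCm38.p6, 300 bases each from 250 before to 50 after the start. Promoters of *Csf1r* and *Csf2rb* were not searched. Capitals mark the core GAGGAA, which begins 86 bases before the start of *Csf3r*, in the window chr4:126024409-126024708 on the plus strand.
Csf3r: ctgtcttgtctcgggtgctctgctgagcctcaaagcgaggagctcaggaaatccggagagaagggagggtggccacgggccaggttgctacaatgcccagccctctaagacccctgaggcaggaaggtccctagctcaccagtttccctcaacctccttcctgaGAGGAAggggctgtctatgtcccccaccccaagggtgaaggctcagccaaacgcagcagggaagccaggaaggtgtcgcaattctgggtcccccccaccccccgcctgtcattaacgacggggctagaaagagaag
The core was searched on both strands and occurs in 28.3% of 32851 promoters of this length. Among the 4 promoters it was also present in *Kit*, and it was absent from *Csf1* and *Csf2*.

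*Csf1*, the ligand of CSF1R, was called higher than Sham in RCI and in none of the other irradiated groups. Sham replicates had 35.5, 107.6 and 36.3 scaled counts. Their raw counts were 39, 40 and 43, so replicate 2 stands out only after division by its scaling factor of 0.372. WBIR samples had 69.3, 41.2 and 32.4, and WBIR+MSC-EVs samples had 64.65, 49.95 and 48.9. RCI samples had 83.7, 138.2 and 266.1, and RCI+MSC-EVs samples had 50.8, 72.0 and 53.8. All 3 RCI samples lay above all 9 samples of the other irradiated groups, and RCI replicate 1 lay below Sham replicate 2. Within RCI the highest sample was more than 3 times the lowest.

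The log2 difference of *Csf1* between RCI and Sham was 1.53 ± 0.49, a fold of 2.88, and was called by edgeR (adjusted p = 0.0121). It was -0.27 ± 0.50 in WBIR (adjusted p = 0.636), -0.08 ± 0.50 in WBIR+MSC-EVs (adjusted p = 0.893) and 0.05 ± 0.49 in RCI+MSC-EVs (adjusted p = 0.936). The RCI difference was 0.97 without RCI replicate 3 (adjusted p = 0.0804), 2.19 without Sham replicate 2 (adjusted p = 0.00124), 1.25 without Sham replicate 1 (adjusted p = 0.0550) and 1.26 without Sham replicate 3 (adjusted p = 0.0561). Its call thus depends on single samples of both groups, while its sign held under all 16 settings. The signs in the other 3 groups change with the scaling or with 1 sample.

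Some markers of stromal and endothelial cells, which make CSF-1, were also higher in RCI. Of these, *Cxcl13* was among the genes most like *Csf1* over the 12 irradiated samples, as given below. Of 8 tested, 4 were called higher and 1 lower than Sham in RCI, with a median log2 difference of 1.59 beside -0.53 over all tested genes, and 2 to 3 were higher and 1 lower in the other groups. By edgeR the 4 that rose in RCI were *Cxcl12*, a stromal chemokine (3.00 ± 0.49, adjusted p = 1.1e-04), *Cxcl13* (2.46 ± 0.71, adjusted p = 0.00615), *Ccl19*, a chemokine of T zone stroma (2.40 ± 0.59, adjusted p = 0.00239), and *Cdh5*, the endothelial cadherin (1.65 ± 0.42, adjusted p = 0.00280). Without RCI replicate 3 *Cxcl13* was at 1.45 and not called (adjusted p = 0.0540). The gene that fell was *Icam2*, an adhesion molecule of endothelium and also of lymphocytes (-2.29 ± 0.26, adjusted p = 3.7e-06). *Cdh5* had a mean of 53.8 ± 7.8 scaled counts in RCI (SD, n = 3) and of 17.6 to 29.0 in the other 4 groups. *Cxcl12* (1.95 ± 0.48) and *Ccl19* (2.07 ± 0.59) were also called higher by edgeR in WBIR, where *Csf1* was not. That call of *Ccl19* was lost without WBIR replicate 1 (0.93, adjusted p = 0.0713). Summed scaled counts of the 9 such genes on the panel were 3464, 4252 and 3947 in Sham replicates 1, 2 and 3. In RCI they were 7368, 7914 and 3449. RCI replicate 3, with the highest *Csf1*, thus lay below every Sham sample in this sum. The sum is weighted to abundant genes, and the single markers were split in that sample. It had the lowest *Vcam1* (438.9 scaled counts) and *Pecam1* (956.4) of the RCI group. It also had the group's highest *Cxcl12* (1145), *Cxcl13* (424.1), *Ccl19* (140.7), *Cd34* (82.5) and *Pdgfrb* (41.6), with *Cdh5* and *Icam2* in between. The part of these markers in the *Csf1* difference was not tested.

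The ratio of ligand to receptor within a sample does not depend on the scaling. The log2 ratio of *Csf1* to *Csf1r* counts was -4.48 ± 1.41 in Sham (SD, n = 3), -6.49 ± 1.03 in WBIR, -4.50 ± 1.62 in RCI, -6.45 ± 0.83 in WBIR+MSC-EVs and -6.23 ± 0.30 in RCI+MSC-EVs. As a ratio of 2 probes, its level has no absolute meaning and only its shifts between samples count. RCI spread over -5.91 to -2.73 and overlapped both WBIR groups, while all RCI+MSC-EVs samples lay below it. Sham replicate 2 and RCI replicate 3 had the highest ratios of their groups. The log2 ratio of *Csf2rb* to *Csf1r* was -2.03 ± 0.56 in Sham. Without overlap it was -3.44 ± 0.33 in WBIR, -3.18 ± 0.12 in RCI+MSC-EVs and -3.48 ± 0.21 in WBIR+MSC-EVs, whereas RCI, at -2.71 ± 0.76, overlapped Sham.

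**Figure D3:**
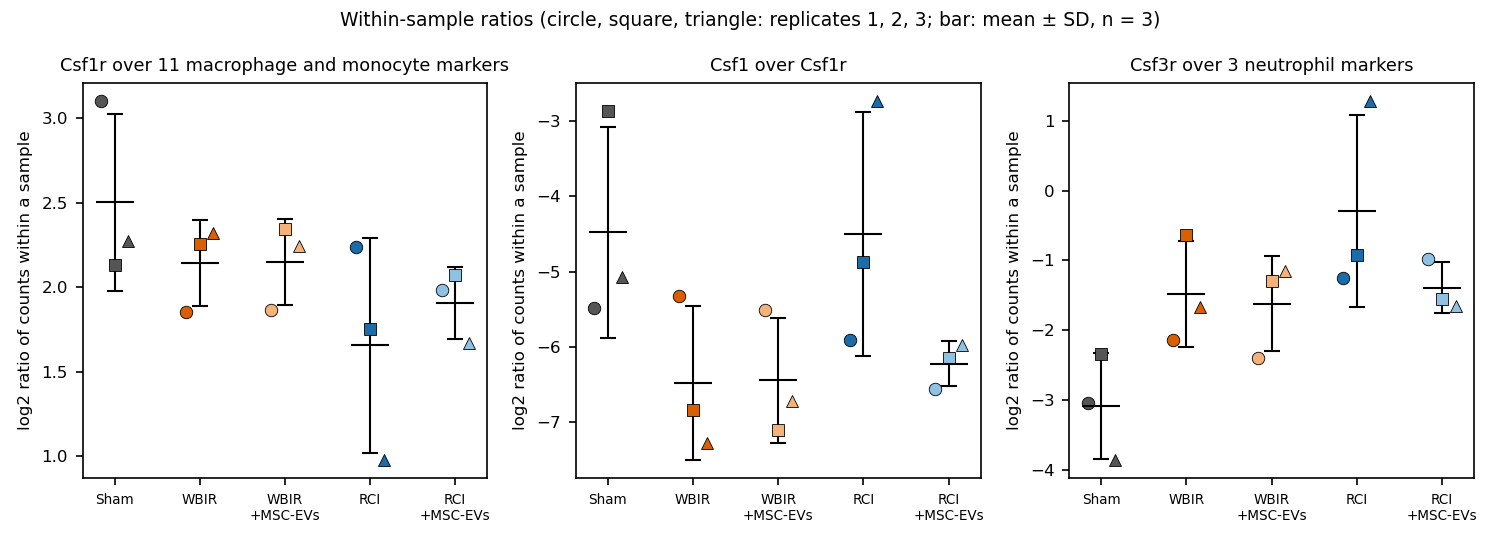
Log2 ratios of counts within each sample, for *Csf1r* over 11 macrophage and monocyte markers, *Csf1* over *Csf1r*, and *Csf3r* over 3 neutrophil markers. Symbols are replicates and bars the mean ± SD (n = 3). The *Csf3r* ratio of Sham reaches up to -2.34, above 1 irradiated sample at -2.40, and the *Csf1* ratio of RCI spans -5.91 to -2.73.

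The *Csf1* promoter is shown because NF-kB acts on cytokine genes in injury and its site was searched there. The site was written as GGG and TTTCC with any 2 bases between. Capitals mark a match on the opposite strand, beginning 154 bases before the start, in the window chr3:107760420-107760719 on the minus strand.
Csf1: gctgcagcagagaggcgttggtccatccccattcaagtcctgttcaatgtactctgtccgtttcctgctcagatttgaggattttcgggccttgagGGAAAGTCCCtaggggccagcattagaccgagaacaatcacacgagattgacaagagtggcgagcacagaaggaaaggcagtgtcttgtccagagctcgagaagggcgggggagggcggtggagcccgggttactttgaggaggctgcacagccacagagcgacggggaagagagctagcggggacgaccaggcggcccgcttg
On both strands, this motif occurs in 1.63% of the 32851 promoters. The other 3 promoters searched, of *Csf2*, *Csf3r* and *Kit*, lack these letters. TTCNNNGAA, the pattern of STAT factors that these receptors activate, occurs in 8.3% of promoters and in none of the 4.

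*Csf2* (GM-CSF) and *Kit* were near the bottom of the counting range. Raw counts of *Csf2* were 3, 6 and 8 in Sham, 9, 3 and 8 in WBIR, 4, 17 and 17 in WBIR+MSC-EVs, 10, 4 and 17 in RCI, and 16, 12 and 13 in RCI+MSC-EVs. An exact Poisson 95% interval, which covers counting error only, runs from 0.619 to 8.77 for 3 counts and from 9.9 to 27.2 for 17. Scaled counts were 14.8, 15.2 and 15.2 in RCI+MSC-EVs, closer together than the 2.73, 16.2 and 6.75 of Sham. No background probe was used here, so whether such counts exceed background was not tested. Without the minimum count, edgeR gave *Csf2* log2 differences from Sham of 0.09 to 1.06, and none was called, the lowest adjusted p being 0.111 in RCI+MSC-EVs. A difference in *Csf2* was not detectable at this depth.

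*Kit* had scaled counts of 27.3, 16.2 and 21.9 in Sham. WBIR samples had 15.6, 7.79 and 13.0, and WBIR+MSC-EVs samples had 6.47, 17.3 and 9.06. RCI samples had 18.7, 6.58 and 13.4, and RCI+MSC-EVs samples had 19.4, 8.84 and 11.7. All 3 WBIR samples lay below the lowest Sham sample, and the other 3 groups overlapped Sham. Raw counts ran from 2, with an exact Poisson 95% interval of 0.242 to 7.22, to 30, with 20.2 to 42.8. Without the minimum count, edgeR gave *Kit* log2 differences of -0.89 ± 0.47 in WBIR and -0.91 ± 0.47 in WBIR+MSC-EVs (adjusted p = 0.126 and 0.116), and of -0.76 ± 0.46 in RCI and -0.72 ± 0.46 in RCI+MSC-EVs (adjusted p = 0.173 and 0.200). All are close to the shift of the median gene.

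Of 4 other progenitor and erythroid markers, 2 were called lower in each irradiated group, a share near that of all tested genes. These were *Tfrc*, the transferrin receptor of erythroid and dividing cells, with a mean of 577 scaled counts in Sham and 126 in RCI, and *Cd24a*, of erythroid and immature lymphoid cells, with 528 and 111. *Cd34*, of progenitors and endothelium, had 23.5 in Sham and 58.3 in RCI, and *Tal1*, of erythroid and stem cells, had 43.7 and 53.7, and neither was called. The mast cell and basophil markers on the panel, *Fcer1a* and *Il1rl1*, were too low to be tested, as *Kit* was. Their part in the *Kit* values was not tested.

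Among the irradiated groups, no difference in these genes passed the edgeR test. MSC-EVs against untreated WBIR gave log2 differences of 0.18 in *Csf1*, 0.26 ± 0.42 in *Csf1r*, 0.23 ± 0.25 in *Csf2rb* and -0.03 in *Csf3r*, with an adjusted p of 0.997 for each. There 0% of all tested genes were called by edgeR, by DESeq2 and by limma, and 11 genes had an unadjusted edgeR p under 0.05. MSC-EVs against untreated RCI gave 0.30 ± 0.42 in *Csf1r* (adjusted p = 0.989), -0.03 in *Csf2rb* (adjusted p = 0.992) and -0.36 ± 0.68 in *Csf3r* (adjusted p = 0.989). In that comparison 0% of tested genes were called by each of these tools, and 14 genes had an unadjusted edgeR p under 0.05.

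*Csf1* was the member that moved most between RCI mice with and without MSC-EVs. It was lower with MSC-EVs by 1.48 ± 0.48 on the log2 scale, at 58.8 ± 11.5 scaled counts against 162.7 ± 93.6, and the ranges did not overlap. The median of the 8 stromal and endothelial markers was -0.81 in this comparison beside 0.12 over all tested genes, with none called. *Cxcl13* had a mean of 77.9 ± 12.7 scaled counts with MSC-EVs and 211 ± 185 without (median 116.2), carried by 1 sample at 424.1. Means were higher with MSC-EVs for *Vcam1* (4220 against 3199), *Pecam1* (1621 against 1398) and *Icam2* (177 against 165), and lower for the others. For *Csf1* the unadjusted p was 0.00810 by edgeR's quasi-likelihood test, and the adjusted p was 0.848. Without RCI replicate 3, which carried 266.1 scaled counts, the difference was -0.91 ± 0.46, with an unadjusted edgeR p of 0.0697. The MSC-EV effect on *Csf1* in RCI minus that in WBIR was -1.66 ± 0.68 (adjusted p = 0.998 by edgeR), where 0% of tested genes were called by edgeR, DESeq2 or limma and 11 had an unadjusted p under 0.05. Averaged over both injuries the MSC-EV effect on *Csf1* was -0.65 ± 0.34 (adjusted p = 0.984 by edgeR). For that average 0% of tested genes were called by edgeR and by limma, 1 gene by DESeq2, and 14 had an unadjusted edgeR p under 0.05.

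The burn was added to the same dose in RCI. *Csf1* was higher in RCI than in WBIR by 1.79 ± 0.49 on the log2 scale, a fold of 3.46, with no overlap of ranges. Its adjusted edgeR p was 0.0951, and no member was called, beside 0.704% of all tested genes. DESeq2 called *Csf1* in this comparison (adjusted p = 0.0118), as did edgeR without RCI replicate 1 (2.10, adjusted p = 0.0292), whereas without RCI replicate 3 the difference was 1.23 (adjusted p = 0.245). *Csf2rb* was at 0.43 ± 0.25 (adjusted p = 0.393 by edgeR), again without overlap, and *Csf1r* at -0.22 (adjusted p = 0.854). Averaged over mice with and without MSC-EVs, the burn difference in *Csf1* was 0.96 ± 0.34 (adjusted p = 0.0925 by edgeR), and no member was called beside 3.05% of all tested genes. That share, 13 genes and all higher, was unstable, with 2 genes called without RCI+MSC-EVs replicate 2, 63 higher and 16 lower without Sham replicate 2, 10 and 18 with TMM scaling, and 56 and 12 by DESeq2. RCI mice also had the anaesthesia and pain relief of the burn procedure, which cannot be told apart from the burn here. The study's text describes the Sham procedure as identical apart from the injuries. It names no anaesthesia or pain relief for WBIR mice. Any such difference between WBIR and Sham mice cannot be told apart from irradiation either.

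**Figure D4:**
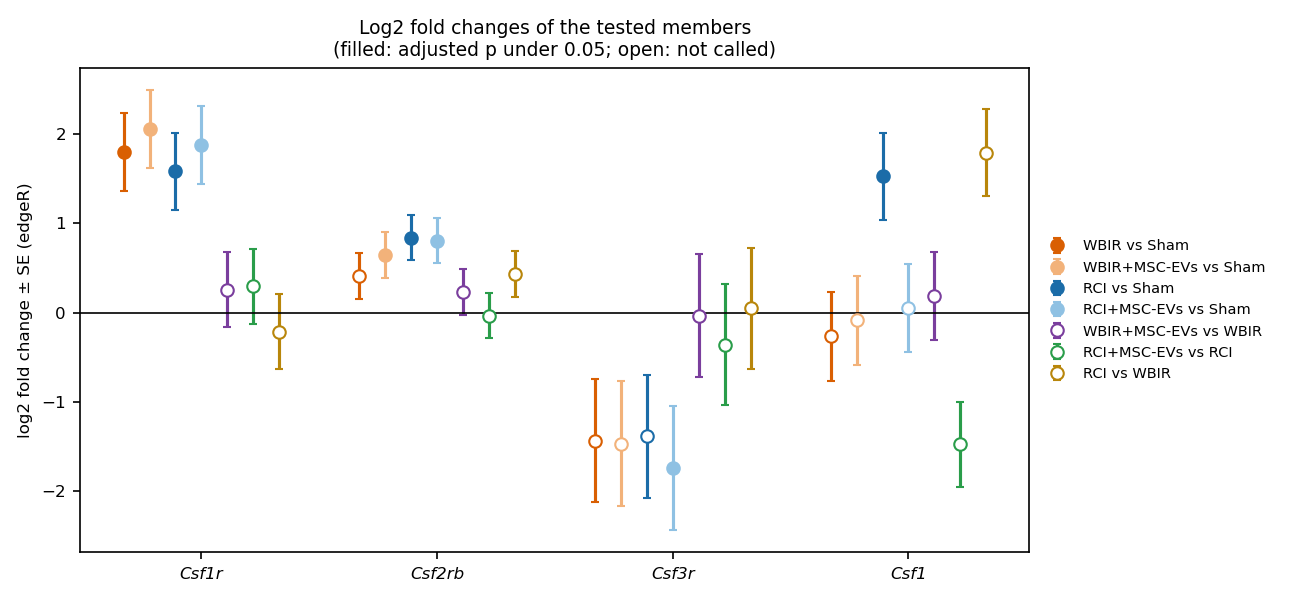
Log2 fold changes ± SE (edgeR) of the 4 tested genes in 7 comparisons, filled where the adjusted p was under 0.05. The 4 values of *Csf1r* against Sham, from 1.58 to 2.06, are all filled, and *Csf1* against Sham is filled in RCI alone, at 1.53.

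Downstream of these receptors, kinases, STAT factors and their regulators moved both ways. Of 19 signalling genes tested, 3 were called higher and 10 lower in WBIR, with a median log2 difference of -0.84 beside -0.74 over all tested genes. The counts were 3 higher and 9 lower in WBIR+MSC-EVs, 4 and 10 in RCI, and 3 and 10 in RCI+MSC-EVs. In WBIR these shares lie near the 21.6% higher and 46.9% lower of all tested genes. With TMM scaling the split in WBIR was 5 higher and 5 lower, and in RCI 7 and 7. The genes named next kept their direction under each scaling tried.

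In WBIR the largest rises were in *Src*, a kinase that couples CSF1R to the cytoskeleton (1.99 ± 0.32), and *Tyrobp*, the adaptor DAP12 that works with CSF1R in macrophages (1.69 ± 0.33). The largest falls were in *Ptpn22*, a lymphocyte tyrosine phosphatase (-2.20 ± 0.24), *Jak2*, the kinase bound to the *Csf2rb* chain (-1.78 ± 0.21), and *Stat5a*, a transcription factor it activates (-1.76 ± 0.29). In RCI the rises were led by *Tyrobp* (2.05 ± 0.33), *Src* (1.61 ± 0.31) and *Socs1*, a feedback inhibitor of JAK kinases (0.64 ± 0.22), which was not called without Sham replicate 1 (0.49, adjusted p = 0.0670). The falls were led by *Ptpn22* (-1.96 ± 0.24), *Stat5a* (-1.83 ± 0.29) and *Jak1*, a kinase of the interferon and common gamma chain receptors (-1.77 ± 0.24). Adjusted p-values by edgeR were at most 0.0154 for these. JAK and STAT genes are also expressed in lymphocytes, whose markers fell: all 11 B cell markers were called lower in each irradiated group. Their part in these falls was not tested.

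Both groups given MSC-EVs had *Src* and *Tyrobp* higher and *Jak1*, *Jak2*, *Jak3*, *Stat5a*, *Stat5b*, *Syk*, *Btk* and *Ptpn22* lower than Sham, with *Socs1* higher in RCI+MSC-EVs and *Socs3* lower there. By edgeR, the call of *Jak3* in WBIR+MSC-EVs was lost without Sham replicate 2 (-0.16, adjusted p = 0.529). It was also lost without any 1 of the group's own 3 samples (adjusted p from 0.0534 to 0.0951). That of *Socs3* in RCI+MSC-EVs was lost without Sham replicate 2 (-0.69, adjusted p = 0.206), and without the group's replicate 1 or 3 (adjusted p = 0.113 and 0.0694). *Socs1* was also the 1 signalling gene called for the burn averaged over treatment. On the panel, *Il3* and *Il5*, ligands of receptors that use the *Csf2rb* chain, and the cytokine gene *Tslp* had too few counts to be tested.

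Myeloid transcription factors also moved both ways. Of 9 tested, 3 were called higher in each irradiated group, and 4 were called lower in all but RCI+MSC-EVs, where 3 were. The share called lower in WBIR lies near the 46.9% of all tested genes. The 3 that rose were *Pparg*, a regulator of lipid-handling macrophages (3.49 ± 0.30 in WBIR and 3.20 ± 0.30 in RCI), *Maf*, of mature macrophages (2.23 ± 0.26 and 2.03 ± 0.26), and *Cebpb*, of inflammatory and emergency myelopoiesis (1.74 ± 0.21 and 1.79 ± 0.21). Largest among the falls were *Gfi1*, a repressor needed for neutrophil formation (-2.996 ± 0.466 and -2.23 ± 0.44), *Irf4*, of lymphocytes and plasma cells (-1.87 ± 0.34 and -1.49 ± 0.33), and *Ikzf1*, of lymphoid development (-1.52 ± 0.27 and -1.27 ± 0.27). Adjusted p-values by edgeR were at most 0.00105 for these 6 in both comparisons. *Irf4* and *Ikzf1* fell beside the B cell markers given above and all 14 T cell markers in WBIR, whose part in these falls was not tested. *Runx1*, of blood stem cells and their progeny, was also called lower in WBIR (-0.53 ± 0.21), but its sign turned with TMM scaling (0.08).

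Over the 12 irradiated samples, the genes most like each tested gene were found by Pearson correlation of log2(scaled count + 1), given as a description across samples that share scaling factors. *Csf1r* was most like *C1qa*, a complement component made by macrophages (r = 0.97, Spearman's rho 0.84), *Ifnar2*, a chain of the type I interferon receptor (r = 0.95, rho 0.85), and *Fcgrt*, the neonatal Fc receptor (r = 0.95, rho 0.76). All 3 stayed above 0.90 without the 2 samples farthest from the *Csf1r* median, but with TMM scaling *C1qa* was followed by *Tgfbr2* (r = 0.95) and *Lair1* (r = 0.92) in place of *Ifnar2* and *Fcgrt*. *Csf2rb* was most like complement *C2* (r = 0.91, rho 0.87), *Fcgr4*, an IgG receptor of myeloid cells (r = 0.90, rho 0.94), and *Ctsc*, a protease that activates granule enzymes (r = 0.85, rho 0.84).

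For *Csf1* the likest genes were complement *C3* (r = 0.91, rho 0.87), *Cxcl13*, a chemokine of follicular stroma (r = 0.89, rho 0.92), and *Cfb*, complement factor B (r = 0.86, rho 0.69). Without RCI replicates 2 and 3, the samples farthest from the *Csf1* median, r was 0.73, 0.88 and 0.50. *Csf3r* was most like *Clec4e*, a C-type lectin of activated myeloid cells (r = 0.88, rho 0.80), *Itgal*, a leukocyte integrin chain (r = 0.83, rho 0.76), and *Socs3*, a feedback inhibitor of G-CSF signalling (r = 0.81, rho 0.64), and without the 2 farthest samples r was 0.74, 0.56 and 0.39. The likeness of *Csf1* to *Cfb* and of *Csf3r* to *Socs3* thus rests in large part on 2 samples each.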

How the data were processed

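Spleen RNA was isolated by the authors after red cell lysis and counted on the nCounter mouse immunology panel. The authors normalised in nSolver, whereas the deposited table holds raw counts of barcodes, whole numbers from 1 up. A count of 0 may be stored as 1. Control probes, cartridges and runs were not used here. Samples were grouped by their labels.

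Counts were scaled to the geometric mean of 14 reference genes and tested with edgeR 4.0.16 (R 4.3.3; robust glmQLFit, glmQLFTest, two-sided), with all 15 samples and 5 group coefficients in 1 fit (10 residual degrees of freedom), over the 426 of 547 endogenous genes whose counts averaged 20 or more. P-values were Benjamini-Hochberg adjusted within each of 10 comparisons and called under 0.05. The spread between replicates beyond counting error was 33.1% (common dispersion 0.11), which with 3 samples a group limits precision. Low counts are limited by counting error. The script was tested on simulated counts. Alternatives were TMM, median-of-ratios and 7-reference-gene scaling, no minimum or a mean of at least 50, DESeq2 1.42.0, limma 3.58.1 on log2(scaled count + 10), a replicate block, and leaving out each sample.

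Deviations of same-numbered samples correlated in every pair of WBIR with WBIR+MSC-EVs (r 0.24 to 0.68) and of RCI with RCI+MSC-EVs (0.26 to 0.52), though only 3 of 6 samples in each were nearest their own number, and not in the other comparisons. The labels do not say what the numbers mark.

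The 6 genes and all gene lists were chosen with earlier results of these data known. Named list genes were the 3 largest called rises and falls in WBIR and RCI against Sham and those called elsewhere, and likeness genes the 3 highest correlations. Not every gene this rule chose is reported here. Marker genes named were chosen after their values were seen.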

Additional observations from a re-analysis of the deposited data

How the results depend on the processing

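Under the alternatives, 401 single-gene values kept their direction and side of the threshold, 31 changed sign and 17 gained and 17 lost a call. Of the counts of called members, 151 stayed within 1.5 times, 8 rose and 4 fell. *Csf1r* against Sham changed in none. By edgeR's adjusted p, with TMM, *Csf1* was at 0.47 in WBIR and 0.54 in WBIR+MSC-EVs, *Csf2rb* at 1.02 in WBIR (2 members called), *Csf3r* at -1.14 in RCI+MSC-EVs, uncalled, and at -0.002 in RCI against WBIR. Median-of-ratios scaling gave 0.47, 0.56, 1.03 (2 called) and -1.15 for the first 4. With 7 reference genes, *Csf3r* was at -1.68 in RCI, called, and -0.27 in RCI against WBIR, *Csf1* at -0.12 in RCI+MSC-EVs, and *Csf2rb* at 0.043 between RCI+MSC-EVs and RCI. DESeq2 called *Csf3r* in WBIR (-1.45, so 2 members), WBIR+MSC-EVs (-1.46) and RCI (-1.40), and *Csf1*, the 1 member, in RCI against WBIR (1.79) and for the averaged burn (0.96). With limma, in WBIR+MSC-EVs 1 member was called, *Csf2rb* fell short (0.57) and *Csf1* was at 0.03, *Csf3r* in RCI+MSC-EVs was uncalled (-0.98) and in RCI against WBIR at -0.079.

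Over all groups, the replicate block ended the call of *Csf3r* in RCI+MSC-EVs (-1.53, adjusted p = 0.0896) and changed no other call. A replicate block within each injury, chosen after seeing the data, changed no call for MSC-EVs. *Csf1* was then at -1.32 in RCI (adjusted p = 0.908) and *Csf1r* at 0.22 in WBIR (adjusted p = 0.999).

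Leaving out 1 sample each, *Csf1* against Sham ran from -0.63 to 0.39 in WBIR, -0.36 to 0.57 in WBIR+MSC-EVs, 0.97 to 2.19 in RCI and -0.23 to 0.71 in RCI+MSC-EVs. *Csf3r* ran from -1.91 to 0.27, -1.95 to 0.23, -1.96 to 0.32 and -2.22 to -0.04, and *Csf2rb* from 0.39 to 0.83 in WBIR+MSC-EVs and 0.65 to 1.02 in RCI+MSC-EVs. Members called ran from 1 to 2 in WBIR, 1 to 3 in WBIR+MSC-EVs and RCI+MSC-EVs, and 0 to 1 in RCI against WBIR, where *Csf1* ran from 1.23 to 2.15, *Csf1r* from -0.53 to 0.11 and *Csf3r* from -0.54 to 0.32. For MSC-EVs in WBIR, *Csf1* ran from -0.036 to 0.54, *Csf1r* from -0.04 to 0.53, *Csf2rb* from -0.015 to 0.42 and *Csf3r* from -0.48 to 0.23. In RCI, *Csf1r* ran from -0.034 to 0.61, *Csf2rb* from -0.19 to 0.18 and *Csf3r* from -0.62 to 0.23. Without both Sham 2 and RCI 3, an alternative chosen after seeing the data, *Csf1* was at 1.62 and called in RCI (adjusted p = 0.00224). Why these calls moved was not tested beyond the samples and settings named. Counting error limits *Csf2* and *Kit*.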
